A study of Rattus norvegicus with 24 samples.

Results

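Primary cardiac fibroblasts from rats aged 3-4 weeks spent 24 hours in DMEM that held either 33 mM glucose (high glucose, 3 libraries) or 5.5 mM glucose (normal glucose, 3 libraries), and their RNA was sequenced. These 6 of the 24 libraries of the series were chosen by their labelled age and glucose level, without regard to any measured value. The series set the same glucose comparison at 4 ages (0-3 days, 3-4 weeks, 10-13 weeks and 20 months), and its stated question was how expression profiles in both glucose levels differ between ages. All 8 groups shared the cell type and, for growth, DMEM with serum. No group with an osmotic control sugar was analysed here, so high glucose and the higher osmolarity of its medium cannot be told apart. The labels give no strain, sex, passage or number of animals, and do not say whether the libraries came from separate animals or cultures. The p-values below therefore measure a spread between libraries, which may be technical. Where libraries of equal number are treated as pairs, it is the spread of the differences within pairs, shared over the 4 ages.

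Cardiac fibroblasts make and remodel the collagen-rich matrix of the heart, and their activation into contractile myofibroblasts underlies cardiac fibrosis, including that of diabetes. Glucose that enters a cell is sensed in part by the carbohydrate-response factors MondoA and ChREBP, which with their partner Mlx bind E-box elements of genes such as Txnip and Arrdc4. A concentrated medium draws water from cells, and the tonicity factor NFAT5 then raises transporters and enzymes that gather organic osmolytes such as betaine, taurine, sorbitol and neutral amino acids.

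The high glucose libraries held 19257141 to 21394280 counts and the normal glucose libraries 18889708 to 20043181. Levels are given in CPM, counts scaled to a common library total. Col1a2 was listed at 0 in all libraries, as were some other widely used genes such as Myh9 and Hsp90aa1, so a 0 in the table is not read as silence. Cardiomyocyte markers summed to 94.9 to 166.8 CPM in high and 98.6 to 184.6 CPM in normal glucose, mostly of Tnnt2, while Myl2, Myl7, Ckm, Mb and Ryr2 were at 0 in all 6 libraries. Macrophage and leukocyte markers summed to 1048 CPM in the high glucose library numbered 1 and 1043 CPM in the normal glucose library numbered 1, against 379 to 448 CPM in the other high and 382 to 421 CPM in the other normal glucose libraries. Lyz2 made most of the sums at number 1 (653 CPM in high and 658 CPM in normal glucose). Not all members followed: C1qa, C1qb and C1qc were highest at number 2, and Cd74 at number 3, in both groups. Epicardial, fibroblast and lymphocyte sums differed in 1 direction at every number, with overlapping groups. Epicardial markers were lower in high glucose (119.9, 87.7 and 125.4 CPM in high glucose, against 133.2, 102.2 and 137.0 CPM in normal glucose). The fibroblast sum was lower in high glucose too (54490, 53590 and 55820 CPM in high glucose, against 54810, 57240 and 56110 CPM in normal glucose), and lymphocyte markers were higher (6.92, 4.48 and 3.48 CPM in high glucose, against 6.84, 4.02 and 2.45 CPM in normal glucose). Most of the fibroblast sum was Col1a1 and Col3a1. Of the 14 fibroblast markers tested, 9 had a log2 change above 0 and 5 below 0 (median 0.03). The remaining sums did not keep 1 direction over the numbers, and their groups overlapped. Endothelial markers summed to 66.5 to 82.5 CPM in high and 69.2 to 85.5 CPM in normal glucose. Smooth muscle and pericyte markers summed to 4710 to 7161 CPM in high and 5082 to 7124 CPM in normal glucose, and Schwann cell markers to 30.3 to 39.4 CPM in high and 34.3 to 37.3 CPM in normal glucose. Adipocyte markers summed to 429.5 to 461.6 CPM in high and 408.1 to 449.5 CPM in normal glucose. Erythroid markers reached at most 0.361 CPM in high and 0.421 CPM in normal glucose. Of the 98 cell type markers that passed the filter on low counts, 0 were called in the comparison below by the paired edgeR or DESeq2 fit, and 9 in edgeR and 6 in DESeq2 had an unadjusted p under 0.05. The part of these markers in the results was not tested, and in bulk libraries fewer cells of a type and less RNA per cell cannot be told apart.

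The libraries of each group carry the numbers 1 to 3, and libraries of equal number lay next to each other. On the first principal component of log2 CPM, with 44.8% of the variance, both libraries numbered 1 lay at -39.5 (high glucose) and -36.3 (normal glucose), against 12.9 to 25.6 for the other 4. The second component, with 27.7%, set number 2 apart from number 3. The third component, with 10.8%, held high glucose at -18.6 to -9.8 and normal glucose at 11.3 to 15.9, so the glucose groups did not overlap there. After the group means were taken off, libraries of equal number correlated across genes at 0.67, 0.61 and 0.57 and libraries of different number at -0.42 to -0.15. Deviations from a group mean sum to 0, so where equal numbers correlate above 0, different numbers fall below 0 on average. The values below 0 are therefore no separate evidence. Equal numbers were treated as culture pairs on the ground of their own correlations, although the labels do not state a pairing.

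**Figure D1:**
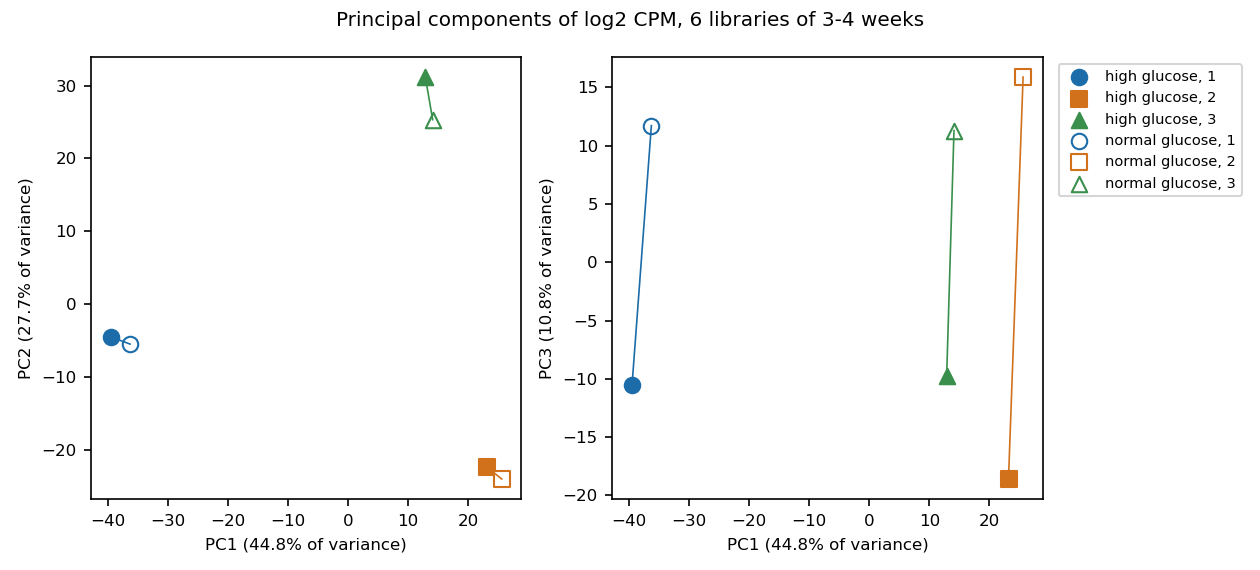
Principal components of log2 CPM in the 6 libraries of 3-4 weeks. The left panel plots PC2 and the right panel PC3 against PC1, filled symbols are high glucose, open symbols normal glucose, and a line joins equal numbers. Equal numbers sit together on PC1 and PC2, and PC3 sets the 3 high glucose libraries (-18.6 to -9.8) apart from the 3 normal glucose libraries (11.3 to 15.9).

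With the number as a block (the paired fit), 54 of 13806 genes tested (0.391%) passed at an adjusted p under 0.05 in edgeR's quasi-likelihood test. Of these, 27 were higher in high glucose (0.196% of genes tested) and 27 lower (0.196%). "Rose" and "fell" are used below only for these 54 genes, each of which moved in its direction in 3 of 3 pairs. The changes were small. Their absolute log2 size ran from 0.21 to 1.37 with a median of 0.36, against a median of 0.092 over all genes tested, and 4 genes changed by more than 2-fold. The largest adjusted p among the 54 was 0.0478 (Slc1a3), and the smallest outside was 0.0506 (Ncf1 among others). Groups did not overlap for 24 of the 54 genes, 10 higher and 14 lower, where 899 of all genes tested (6.51%) had groups that did not overlap.

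Without the block, no gene passed (0%). The smallest adjusted p was then 0.861, and 446 genes had an unadjusted p under 0.05, against 1662 in the paired fit. DESeq2 without the block called 2 genes, Tmod2 and the unnamed locus Rn60_10_0890.5. Of the 54 genes, only Tmod2 was thus called without the block, and only in DESeq2. The edgeR calls below therefore rest on equal numbers marking pairs. They also rest on the number of pairs: without pair 1, 2 or 3 the paired fit called 21, 10 and 5 genes, of which 16, 9 and 5 were among the 54. Slc38a2 and Slc38a4 passed in all 3 of these fits, 3 genes, among them Amd1 and Slc6a12, in 2 of them, 18 further genes in 1 and the remaining 31 in none. None of the 54 changed direction in any of them.

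**Figure D2:**
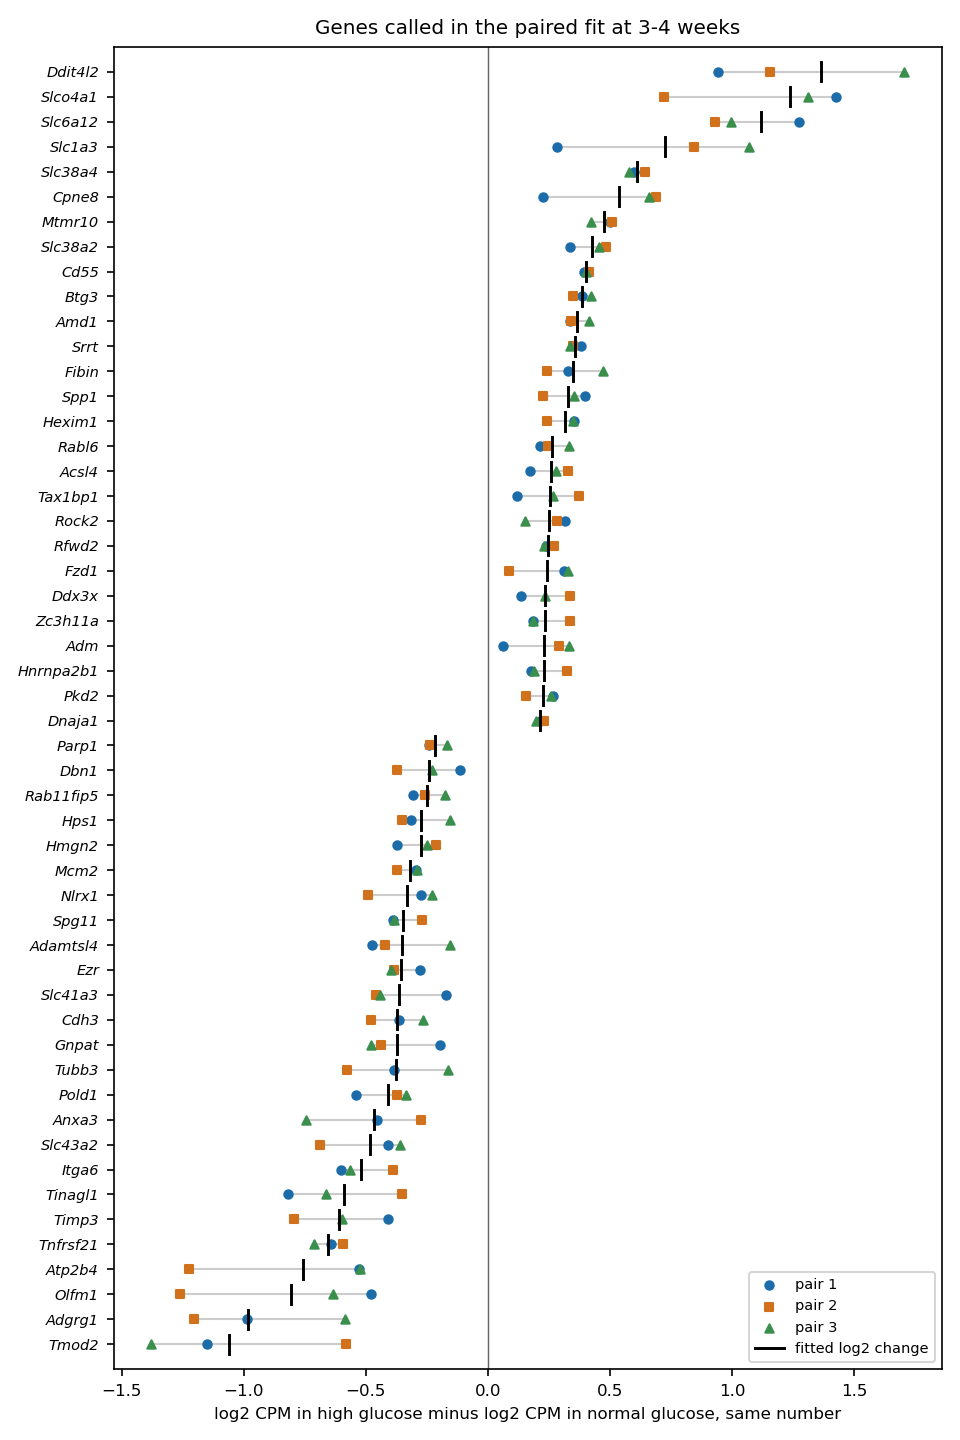
Log2 change (high over normal glucose) of 52 of the 54 genes called in the paired fit. Points are the pairs numbered 1, 2 and 3 (log2 CPM in high glucose minus that in normal glucose), and black bars the fitted change. Every point of the higher genes lies above 0 and every point of the lower genes below 0, from 1.37 for Ddit4l2 to -1.06 for Tmod2.

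Apart from Ddit4l2, the 4 largest rises were of the membrane transporter genes Slco4a1, Slc6a12, Slc1a3 and Slc38a4, and the smallest p was that of the transporter gene Slc38a2. The osmotic response list, which holds NFAT5 and its known targets, had 2 of 11 tested members higher (Slc38a2 and Slc6a12), against 0.196% of all genes tested, none lower, and a median log2 change of 0.11, against -0.0039 over all genes tested. In this list 7 of 11 members had an unadjusted p under 0.05, against 1662 of all 13806 genes. Proximal promoter windows of these and of Slc38a4 are shown, since their genes moved together. Slc38a4, an amino acid transporter gene that rose, is outside the list, and the window of Slc1a3, a further such gene, is not shown. Those shown are RefSeq sequences on GRCr8, from 250 bases before to 50 bases after the annotated start, read 5′ to 3′ along the gene. Capitals mark TGGAAA, the core letters of the tonicity element that NFAT5 binds, on either strand. The windows are chr7:129742570-129742869, minus strand, chr4:156257268-156257567, plus strand, and chr7:130082120-130082419, minus strand.
Slc38a2: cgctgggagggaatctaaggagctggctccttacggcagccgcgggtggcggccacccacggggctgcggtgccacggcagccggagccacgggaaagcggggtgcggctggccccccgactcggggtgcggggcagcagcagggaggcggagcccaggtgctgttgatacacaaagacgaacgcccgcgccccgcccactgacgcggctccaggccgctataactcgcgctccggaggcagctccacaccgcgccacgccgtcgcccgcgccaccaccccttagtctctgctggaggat
Slc6a12: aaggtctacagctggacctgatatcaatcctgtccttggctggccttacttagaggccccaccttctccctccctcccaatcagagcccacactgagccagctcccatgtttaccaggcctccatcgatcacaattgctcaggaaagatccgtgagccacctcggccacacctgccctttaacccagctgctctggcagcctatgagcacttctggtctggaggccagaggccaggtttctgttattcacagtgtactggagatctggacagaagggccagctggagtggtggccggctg
Slc38a4: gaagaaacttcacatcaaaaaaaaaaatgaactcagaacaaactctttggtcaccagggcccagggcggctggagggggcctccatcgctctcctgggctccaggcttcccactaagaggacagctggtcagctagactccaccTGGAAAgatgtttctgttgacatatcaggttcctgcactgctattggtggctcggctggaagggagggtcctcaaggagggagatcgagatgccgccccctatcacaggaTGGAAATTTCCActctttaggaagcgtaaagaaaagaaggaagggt
The Slc38a4 window holds the letters with their first base 106 bases before the start, again 5 bases from the start (the start base being 1), and on the opposite strand 11 bases from it, so the last 2 adjoin. The windows of Slc38a2 and Slc6a12 do not hold them. Of 33469 windows in the table, 7604 (22.7%) hold TGGAAA on 1 strand or the other. Among the 54 genes, 47 had a window and 9 of these (19.1%) held it. Of the 24 genes that rose and had a window, 5 held it. These counts are of genes, whereas the 22.7% is a share of windows.

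Slc38a2 encodes SNAT2, a sodium-coupled carrier of small neutral amino acids that cells use to regain volume (ENSRNOG00000006305, Rnor_6.0 chromosome 7, 138088649 to 138100841). It had 601, 696 and 822 CPM in high glucose numbers 1, 2 and 3, against 477, 497 and 599.5 CPM in normal glucose. All 3 high glucose libraries lay above all 3 normal glucose libraries. The paired log2 change was 0.43 ± 0.052 (SE), with the smallest adjusted p of all genes (0.00124), and 0.43 with an unadjusted p of 0.00611 without the block. It remained called without each pair in turn, at log2 changes of 0.40 to 0.47.

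Slc6a12 encodes BGT1, the carrier of the osmolyte betaine and of GABA (ENSRNOG00000013547, Rnor_6.0 chromosome 4, 153921115 to 153941391). It had 14.2, 4.45 and 6.94 CPM in high glucose, against 5.82, 2.29 and 3.43 CPM in normal glucose. The groups overlapped, because number 1 was high in both, but each high glucose library held more than its own pair. The paired log2 change was 1.12 ± 0.15 (SE; adjusted p = 0.00232), and 0.99 with an adjusted p of 0.0607 without pair 1. The other organic osmolyte carrier tested, the taurine transporter Slc6a6, had 321, 119.7 and 210.1 CPM in high glucose, against 259.5, 98.7 and 160.5 CPM in normal glucose. It was higher in 3 of 3 pairs and did not pass (log2 change 0.33 ± 0.080 SE, adjusted p = 0.103), although it passed in DESeq2 (adjusted p = 0.0201) and in a paired fit to the 6 libraries alone (adjusted p = 0.00479).

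Slc38a4 encodes SNAT4, a further neutral amino acid carrier of the SNAT family (ENSRNOG00000006653, Rnor_6.0 chromosome 7, 138459504 to 138512952). It had 18.5, 31.1 and 24.5 CPM in high glucose, against 12.2, 19.9 and 16.4 CPM in normal glucose. The groups overlapped, and the 3 pairs gave nearly equal changes (0.61 ± 0.085 SE, adjusted p = 0.00232). Slc38a1, of the same family, did not pass (log2 change -0.07, adjusted p = 0.757), and neither did the other 4 members of the Slc38 family that were tested.

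The organic anion carrier gene Slco4a1 rose (13.3, 3.75 and 6.22 CPM in high glucose, against 4.88, 2.24 and 2.45 CPM in normal glucose; log2 change 1.24 ± 0.20 SE, adjusted p = 0.0114). Its levels were highest at number 1 in both groups, which overlapped. Slc1a3, the glutamate and aspartate carrier also called GLAST, rose by a log2 change of 0.73 ± 0.16 SE (9.83, 4.65 and 14.5 CPM in high glucose, against 8.07, 2.55 and 6.86 CPM in normal glucose; adjusted p = 0.0478). Its groups overlapped, and its adjusted p was 0.262 without pair 2 and 0.393 without pair 3. Slc43a2, which carries large neutral amino acids, fell (13.8, 9.24 and 11.2 CPM in high glucose, against 18.4, 14.97 and 14.5 CPM in normal glucose; log2 change -0.49 ± 0.094 SE, adjusted p = 0.0241), and Slc41a3, of a magnesium carrier family, fell by 0.37 on the log2 scale. In all, 7 of 230 tested genes with an Slc symbol were called, a grouping made after their values were seen, against 0.391% of all genes tested.

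Scaled by gene length, these carriers stood at unlike levels. Slc38a2 had deposited FPKM values of 128.9 to 180.5 in high glucose and 103.4 to 131.8 in normal glucose. Slc38a4 had 4.19 to 7.30 FPKM in high glucose and 2.79 to 4.60 FPKM in normal glucose, and Slc6a12 had 1.46 to 4.49 FPKM in high glucose and 0.741 to 1.86 FPKM in normal glucose. The level of Slc38a2 thus lay above that of the other carriers in every library, while its log2 change was the smallest of these 3. The remaining members of the osmotic list did not pass. The factor gene Nfat5 had a log2 change of 0.18 ± 0.070 SE (adjusted p = 0.296) and Akr1b1, the aldose reductase that makes sorbitol, 0.07 ± 0.060 SE (adjusted p = 0.726), each higher in 3 of 3 pairs, while Smpdl3b (-0.29, adjusted p = 0.0959) and the chaperone gene Hspa4l (-0.50, adjusted p = 0.243) were lower in 3 of 3 pairs. The inositol carrier Slc5a3 was not analysed here.

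**Figure D3:**
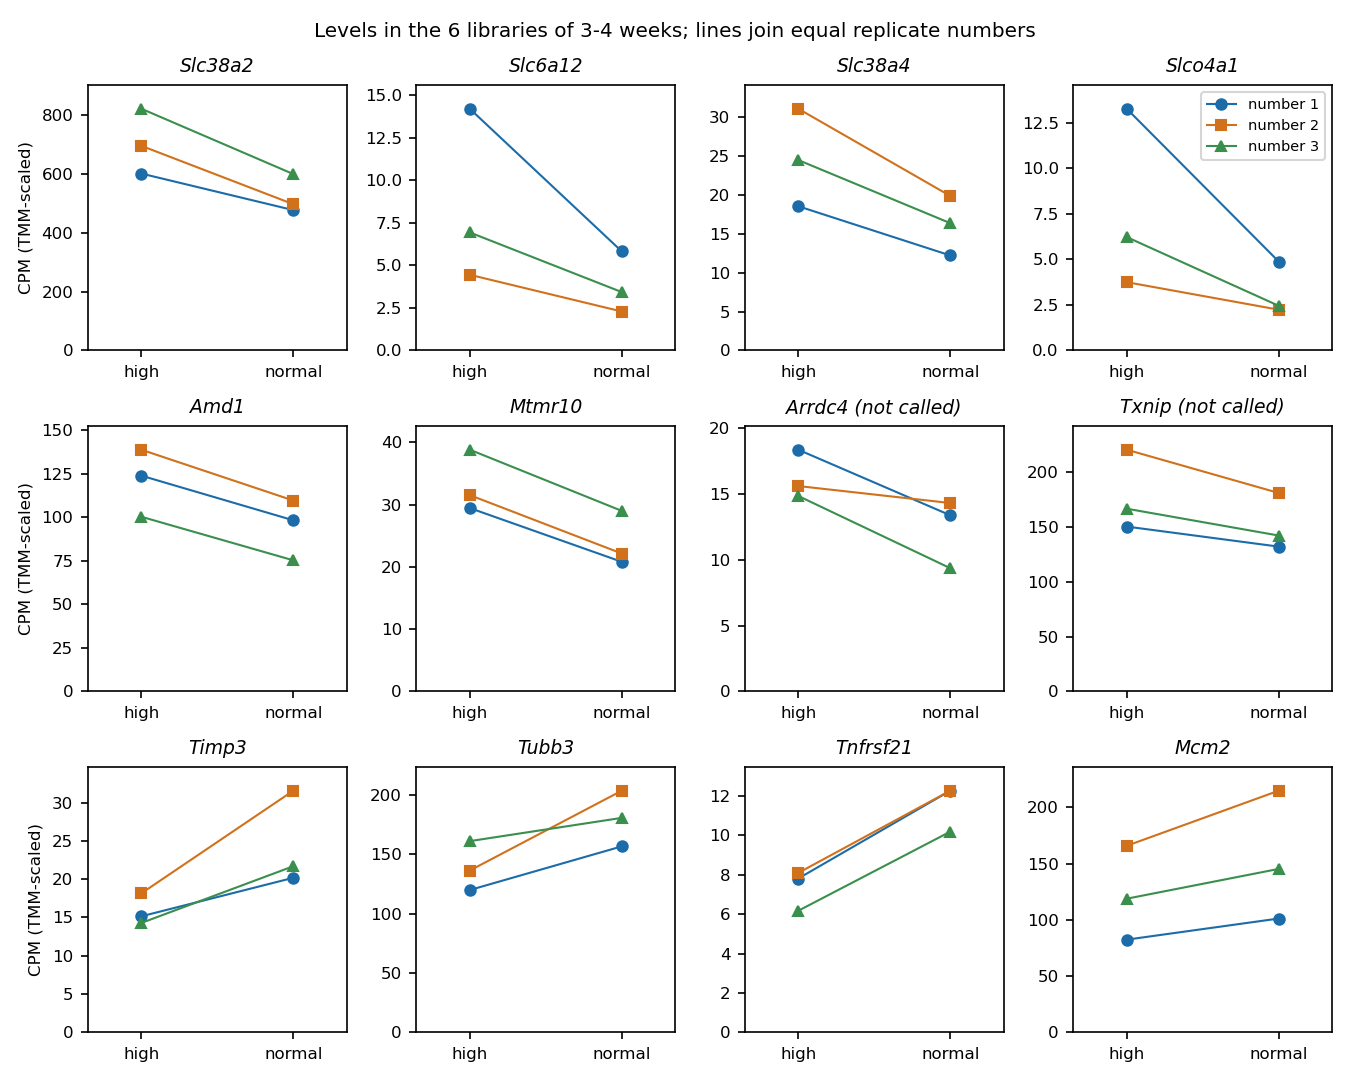
Levels of 12 genes in TMM-scaled CPM (vertical axes, from 0) in high glucose (left) and normal glucose (right) at 3-4 weeks, with a line for each number. The lines of the 6 genes from Slc38a2 to Mtmr10 all run lower towards normal glucose, as do those of Arrdc4 and Txnip, which did not pass, and the lines of Timp3, Tubb3, Tnfrsf21 and Mcm2 all run higher towards normal glucose.

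None of the 13 tested genes of glucose sensing passed, and 4 had an unadjusted p under 0.05. Arrdc4, an alpha-arrestin target of MondoA, had 18.4, 15.6 and 14.8 CPM in high glucose, against 13.4, 14.3 and 9.35 CPM in normal glucose. All 3 high glucose libraries lay above all 3 normal glucose libraries, with a log2 change of 0.41 ± 0.10 SE and an adjusted p of 0.0835. Its RefSeq promoter window (GRCr8 chr1:131793376-131793675, minus strand) is shown with the E-box CACGTG in capitals, the core of the carbohydrate-response element.
Arrdc4: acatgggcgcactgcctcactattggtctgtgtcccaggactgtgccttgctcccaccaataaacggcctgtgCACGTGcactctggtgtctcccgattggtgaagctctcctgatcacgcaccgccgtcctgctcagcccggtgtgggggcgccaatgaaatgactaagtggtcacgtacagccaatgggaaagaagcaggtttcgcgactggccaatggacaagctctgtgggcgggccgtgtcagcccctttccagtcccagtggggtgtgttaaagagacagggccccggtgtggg
The match begins 177 bases before the start. Only CACGTG is marked in this window, which also holds TGGAAA on the opposite strand. CACGTG, which reads the same on both strands, is held by 2148 of the 33469 windows (6.42%). Of the 47 called genes with a window, 7 (14.9%) held it, 1 of them a gene that rose. The first share is of windows and the second of genes. Txnip, the arrestin that binds thioredoxin and limits glucose uptake, had 150.3, 220.4 and 166.6 CPM in high glucose, against 132.0, 180.9 and 142.1 CPM in normal glucose. It was higher in 3 of 3 pairs with overlapping groups, and did not pass (log2 change 0.23 ± 0.066 SE, adjusted p = 0.133; adjusted p = 0.0380 in a paired fit to the 6 libraries alone). Mlx was at 0.16 (adjusted p = 0.271) and the repressor gene Bhlhe41 at -0.21 (adjusted p = 0.255).

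No gene of glycolysis (28 tested, 1 at an unadjusted p under 0.05) or of the polyol, hexosamine and pentose phosphate pathways (15 tested, 0 at an unadjusted p under 0.05) passed in either direction. The glucose carrier Slc2a1 had a log2 change of 0.17 ± 0.13 SE (adjusted p = 0.688), the hexokinase Hk2 one of 0.08 ± 0.082 SE (adjusted p = 0.775), and Ogt, the enzyme that attaches O-GlcNAc to proteins, one of 0.16 (adjusted p = 0.441). The list medians were 1e-04 for glycolysis and 0.04 for the second list. The lists of cholesterol and fatty acid synthesis (31 tested, median -0.02), fatty acid oxidation (20, median -0.01), the mitochondrial genome (11, median 0.08) and the nuclear respiratory chain (26, median -0.02) also had no member called. In all, 18 of 24 functional lists had no called member in edgeR's paired fit, where 0.391% of all genes tested were called, and these 18 had none in the paired DESeq2 fit.

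Of the lists tied to fibrosis, matrix remodelling (25 tested) and matrix glycoproteins (26 tested) had 1 called member each, where 0.391% of all genes tested were called. None of 18 collagens passed and 6 had an unadjusted p under 0.05, with 15 of 18 changes below 0 and a median of -0.08, where 7111 of all 13806 changes were below 0. Col1a1, the main fibrillar collagen of the heart, averaged 27540 ± 1270 CPM in high glucose and 28590 ± 1720 CPM in normal glucose (SD, n = 3 each; log2 change -0.05, adjusted p = 0.717). Col3a1 had a log2 change of -0.03 (adjusted p = 0.917). The microfibrillar Col6a1 and Col6a3 were lower in 3 of 3 pairs (log2 changes -0.19 and -0.23, adjusted p = 0.142 and 0.200), and Col8a2 in 2 of 3 (-0.26, adjusted p = 0.167).

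None of 18 contractile genes passed (median -0.05, 3 at an unadjusted p under 0.05), and Acta2, the smooth muscle actin that marks myofibroblasts, averaged 2504 ± 625 CPM in high glucose and 2592 ± 392 CPM in normal glucose (SD, n = 3 each; log2 change -0.07 ± 0.064 SE, adjusted p = 0.746). None of 24 TGF-beta pathway genes passed (12 above and 12 below 0, median 0.01, 5 at an unadjusted p under 0.05). The matricellular gene Postn had a log2 change of 0.02 ± 0.043 SE (adjusted p = 0.919).

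Of 25 matrix remodelling genes, Timp3 was the only one called. It encodes a matrix-bound inhibitor of metalloproteinases (ENSRNOG00000004303, Rnor_6.0 chromosome 7, 23544215 to 23594133). It had 15.2, 18.1 and 14.3 CPM in high glucose, against 20.2, 31.6 and 21.7 CPM in normal glucose, without overlap (log2 change -0.61 ± 0.11 SE, adjusted p = 0.0195; 0.253 without pair 2 and 0.128 without pair 3). Syn3, on the opposite strand, overlaps Timp3 but held 73 counts over the 24 libraries, against 12394 for Timp3. Of 26 matrix glycoprotein genes, Spp1, which encodes osteopontin, rose (139.2, 68.2 and 48.3 CPM in high glucose, against 105.8, 58.3 and 37.8 CPM in normal glucose; log2 change 0.33 ± 0.058 SE, adjusted p = 0.0195). Spp1 is also expressed by macrophages, and its level was highest at number 1 in both groups. So was the sum of the macrophage markers (1048 CPM in high and 1043 CPM in normal glucose), most of it Lyz2, whereas C1qa, C1qb, C1qc and Cd74 were highest at other numbers. Spp1 was not called without pair 1 (adjusted p = 0.141) or pair 3 (adjusted p = 0.128).

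The remaining called genes outside the lists are arranged from here on by what they encode, after their values were seen, so the arrangement is no test of a theme. Several encode matrix or adhesion proteins. Tinagl1, a basement membrane protein that binds integrins, fell (7.15, 18.99 and 8.67 CPM in high glucose, against 12.7, 24.3 and 13.8 CPM in normal glucose; log2 change -0.59 ± 0.097 SE, adjusted p = 0.0117). The laminin receptor subunit Itga6 fell by 0.52, the cadherin Cdh3 by 0.37, the microfibril-associated Adamtsl4 by 0.35 and the adhesion receptor Adgrg1 by 0.98 on the log2 scale. Fibin, a secreted protein gene, rose by 0.35.

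Other called genes encode proteins of the cytoskeleton. Tmod2, a tropomodulin that caps actin filaments, had 1.74, 2.40 and 1.63 CPM in high glucose, against 3.98, 3.64 and 4.41 CPM in normal glucose. The groups did not overlap, and the log2 change was -1.06 ± 0.21 SE (adjusted p = 0.0275). Its adjusted p was 0.0769 in the paired DESeq2 fit, although DESeq2 called it without the block. Tubb3, a beta-tubulin, had 119.9, 136.3 and 161.1 CPM in high glucose, against 156.7, 203.6 and 180.7 CPM in normal glucose (log2 change -0.38 ± 0.072 SE, adjusted p = 0.0275). The actin-binding genes Ezr and Dbn1 fell by 0.35 and 0.24, whereas Rock2, a kinase that drives actomyosin contraction, rose by 0.25.

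The cell cycle list had 1 of 31 members called, Mcm2, which was lower, against 0.196% of all genes tested called lower. Of the 31 changes 29 were below 0, with a median of -0.13, against 7111 of all 13806 changes and a median of -0.0039. An unadjusted p under 0.05 was found for 10 of the 31, against 1662 of all 13806 genes. Mcm2, a subunit of the helicase that opens DNA for replication, had 82.4, 165.8 and 118.8 CPM in high glucose, against 101.2, 214.8 and 145.3 CPM in normal glucose. The groups overlapped and each high glucose library was lower than its pair (log2 change -0.32 ± 0.058 SE, adjusted p = 0.0195; 0.0835 to 0.217 with a pair left out). The other subunits of that helicase, named after their values were seen, were lower in 3 of 3 pairs and did not pass. Mcm3 was at -0.24 (adjusted p = 0.217), Mcm4 at -0.11 (0.515), Mcm5 at -0.28 (0.507), Mcm6 at -0.28 (0.0832) and Mcm7 at -0.22 (0.146). Tk1, the thymidine kinase, was at -0.29 (adjusted p = 0.126). In a paired fit to the 6 libraries alone, 4 members of the list passed. Outside the list, Pold1, the catalytic subunit of DNA polymerase delta, fell by 0.41 and the DNA repair enzyme Parp1 by 0.22, and Btg3, of an antiproliferative family, rose by 0.39.

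**Figure D4:**
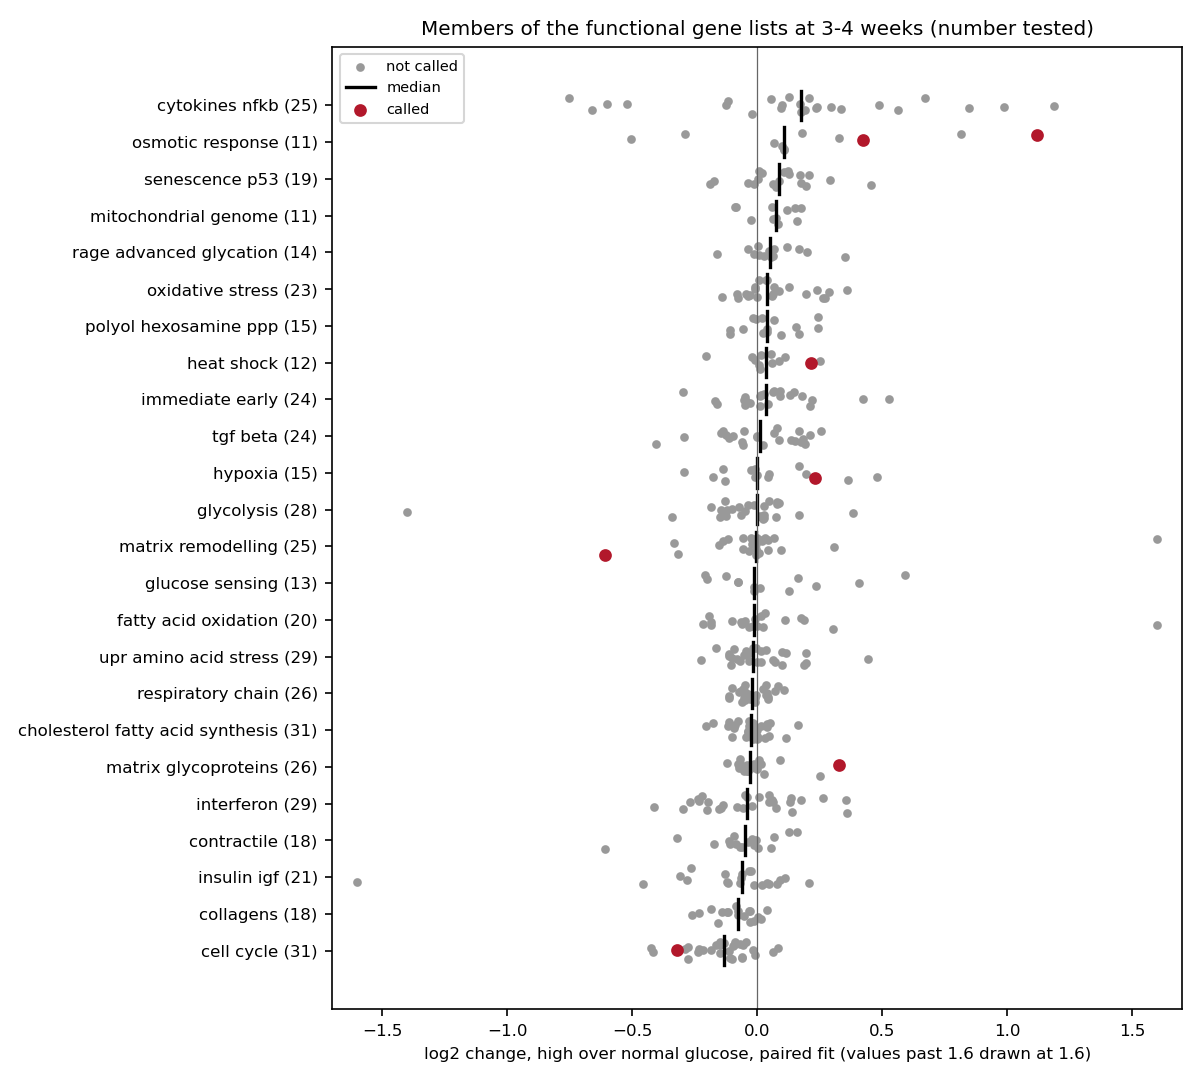
Log2 change (high over normal glucose, paired fit) of the tested members of 24 functional gene lists, with the number tested beside each list. Grey dots did not pass, red dots passed, and black bars are list medians. The medians run from -0.13 (cell cycle) to 0.17 (cytokines and NF-kappaB targets), and red dots appear in 6 lists, once in each except for 2 in the osmotic response.

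Stress and inflammation lists gave 2 calls, where 0.391% of all genes tested were called. Of 12 heat shock genes the co-chaperone Dnaja1 rose (154.9, 131.8 and 135.6 CPM in high glucose, against 133.5, 112.3 and 118.5 CPM in normal glucose; log2 change 0.21, adjusted p = 0.0328), and of 15 hypoxia genes the vasodilator peptide gene Adm rose (184.6, 259.6 and 316.0 CPM in high glucose, against 176.9, 212.3 and 250.7 CPM in normal glucose; log2 change 0.23, adjusted p = 0.0446). Neither was called in the paired fit to the 6 libraries alone. None of 25 cytokine and NF-kappaB genes passed, with 18 of 25 changes above 0, a median of 0.17 and 3 genes at an unadjusted p under 0.05. Il6 had 2.21, 1.349 and 2.19 CPM in high glucose, against 0.839, 0.780 and 1.27 CPM in normal glucose, in groups without overlap (log2 change 0.99 ± 0.37 SE, adjusted p = 0.269). Ccl2, a monocyte attractant named after its values were seen, averaged 199.4 CPM in high glucose and 106.8 CPM in normal glucose (log2 change 0.67, adjusted p = 0.564; 0.35 without pair 1), and the prostaglandin synthase Ptgs2 had a log2 change of 0.21 ± 0.49 SE (adjusted p = 0.915).

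Among 23 oxidative stress genes none passed, and 4 had an unadjusted p under 0.05. The NADPH oxidase subunit Ncf1 came nearest (38.6, 17.5 and 19.4 CPM in high glucose, against 30.8, 14.1 and 14.2 CPM in normal glucose; log2 change 0.36 ± 0.079 SE, adjusted p = 0.0506). It is expressed in phagocytes, and its level was highest at number 1 in both groups, as was the sum of the macrophage markers, though not each of them. Gclc, the glutathione synthesis enzyme, was at 0.29 (adjusted p = 0.0947). Of the 29 genes of the unfolded protein and amino acid stress responses none passed, with Trib3 at -0.23 (adjusted p = 0.148), Ddit4 at 0.20 (0.205) and the cationic amino acid carrier Slc7a3 at 0.44 (0.230). No member was called among 19 senescence and p53 genes (Cdkn1b at 0.19, adjusted p = 0.260), 29 interferon, 24 immediate early, 21 insulin and IGF, or 14 advanced glycation receptor genes.

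Further genes that rose encode enzymes and regulators. Amd1, the decarboxylase that feeds polyamine synthesis, had 123.9, 138.8 and 100.3 CPM in high glucose, against 98.2, 109.6 and 75.3 CPM in normal glucose (log2 change 0.36 ± 0.052 SE, adjusted p = 0.00295). Mtmr10, of the myotubularin family, had 29.5, 31.5 and 38.8 CPM in high glucose, against 20.8, 22.1 and 29.0 CPM in normal glucose, without overlap (0.48 ± 0.077 SE, adjusted p = 0.0114). Acsl4, the ligase that activates arachidonic acid, had 141.8, 130.3 and 130.5 CPM in high glucose, against 125.9, 103.8 and 107.5 CPM in normal glucose, without overlap (0.26 ± 0.048 SE, adjusted p = 0.0195). Each of the 3 was higher in 3 of 3 pairs, and the groups overlapped only for Amd1.

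Ddit4l2, with 1.599, 3.60 and 3.42 CPM in high glucose, against 0.786, 1.56 and 0.979 CPM in normal glucose, had the largest change of the 54 genes (log2 change 1.37 ± 0.25 SE, adjusted p = 0.0195) at 1 of the lowest levels. The complement regulator Cd55 rose by 0.40, the calcium-dependent membrane binder Cpne8 by 0.54, the Wnt receptor Fzd1 by 0.24, the cation channel Pkd2 by 0.23, the autophagy receptor Tax1bp1 by 0.25, the ubiquitin ligase Rfwd2 by 0.25 and Rabl6, a small GTPase-like protein, by 0.26 on the log2 scale.

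Genes of RNA metabolism and transcription were called in both directions. Srrt, a partner of the cap-binding complex, rose by 0.36, Hexim1, an inhibitor of the elongation kinase P-TEFb, by 0.32, the RNA helicase Ddx3x by 0.24, Zc3h11a by 0.23 and Hnrnpa2b1 by 0.23. The nucleosome-binding Hmgn2 fell by 0.28. Hmgn2, Hnrnpa2b1 and Ddx3x have near-identical copies elsewhere in the genome, and their counts are uncertain to that extent.

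Other genes that fell encode signalling, calcium, peroxisomal and vesicle proteins. The calcium pump Atp2b4 had 17.0, 13.0 and 16.9 CPM in high glucose, against 24.5, 30.5 and 24.4 CPM in normal glucose (log2 change -0.76 ± 0.15 SE, adjusted p = 0.0443). The death receptor Tnfrsf21 had 7.81, 8.09 and 6.17 CPM in high glucose, against 12.3, 12.3 and 10.2 CPM in normal glucose (-0.66 ± 0.12 SE, adjusted p = 0.0195), and the secreted glycoprotein gene Olfm1 had 5.08, 4.30 and 4.69 CPM in high glucose, against 7.13, 10.5 and 7.35 CPM in normal glucose (-0.81 ± 0.15 SE, adjusted p = 0.0195). None of these 3 genes had overlapping groups. Anxa3, a calcium-dependent phospholipid binder, fell by 0.47. The peroxisomal gene Gnpat, of plasmalogen synthesis, fell by 0.37. Spg11 fell by 0.35, the mitochondrial Nlrx1 by 0.33, Hps1 by 0.27 and Rab11fip5, a partner of recycling endosomes, by 0.25.

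The same comparison at the other ages used other libraries. These are not independent of the choice of the 54 genes, since all 24 libraries shared 1 estimate of the spread, and 40 of the 54 were called with the 6 libraries of 3-4 weeks alone. Paired fits called 148 genes at 0-3 days (1.07% of 13806), 1067 at 10-13 weeks (7.73%) and 128 at 20 months (0.927%). The 54 genes had the same direction in 52 of 54 cases at 0-3 days, 50 of 54 at 10-13 weeks and 54 of 54 at 20 months, and 48 of them at all 3. The median log2 change of the 27 higher genes was 0.21, 0.25 and 0.22 at those ages and that of the 27 lower genes -0.24, -0.27 and -0.26, against medians over all genes of -0.01, -0.0047 and -0.0058. At 0-3 days 18 of the 54 genes were called in the same direction, which is 33.3% of the 54 and 12.2% of that age's calls. At 10-13 weeks it was 29 (53.7% and 2.72%), and at 20 months 17 (31.5% and 13.3%).

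Slc38a2, Slc6a12, Amd1, Mtmr10, Acsl4 and Tubb3 were called in the same direction at all 4 ages. For Slc38a2 the log2 changes were 0.33, 0.43, 0.41 and 0.40 from 0-3 days to 20 months, and for Amd1 they were 0.27, 0.36, 0.40 and 0.24. For Slc6a12 they were 0.84 ± 0.11, 1.12 ± 0.15, 1.23 ± 0.25 and 1.77 ± 0.375 (SE). Its mean levels were 32.4, 8.53, 2.15 and 0.973 CPM in high glucose and 18.2, 3.85, 0.920 and 0.288 CPM in normal glucose. Slc6a12 thus kept its direction while its mean level was lower at each later age, which was not tested. At 20 months its change rested on low counts, with SDs of 0.63 CPM in high and 0.31 CPM in normal glucose. Slco4a1, called at all ages but 20 months, had log2 changes of 1.32, 1.24, 1.48 and 1.07, and Slc38a4, called at 0-3 days and 3-4 weeks, had 0.43, 0.61, 0.19 and 0.29. Slc6a6, which did not pass at 3-4 weeks, was called at each other age (0.50, 0.39 and 0.46 at 0-3 days, 10-13 weeks and 20 months). Arrdc4 and Txnip were called at 10-13 weeks only (0.49 and 0.27), and their difference from 3-4 weeks is taken up with the test against each age below.

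**Figure D5:**
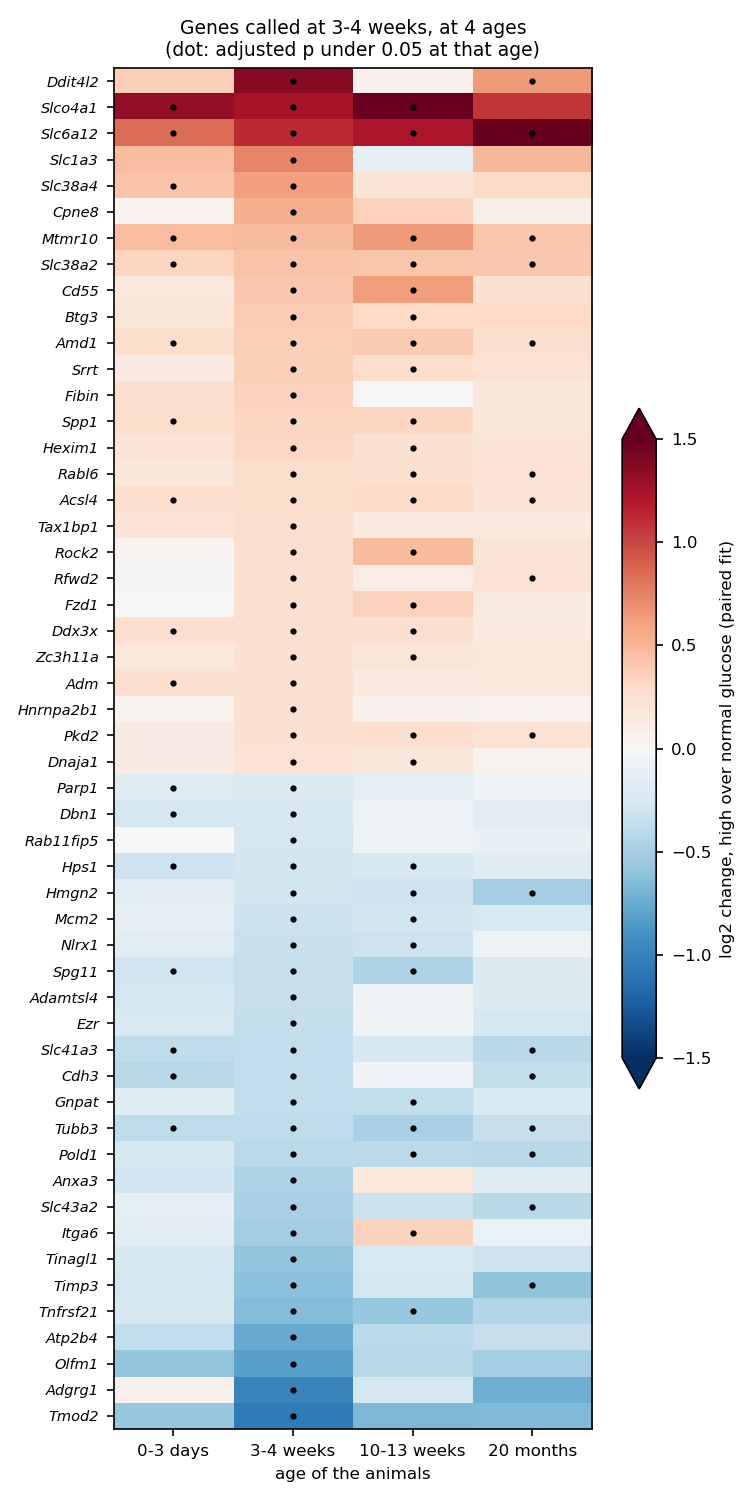
Paired log2 change (high over normal glucose, colour scale clipped at 1.5) of 52 of the 54 genes at 4 ages, in the order of their change at 3-4 weeks. A dot marks an adjusted p under 0.05 at that age. Most rows keep 1 colour across ages, and Itga6 turns from blue at 3-4 weeks (-0.52) to red at 10-13 weeks (0.34).

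The test of the difference itself called no gene for which the change at 3-4 weeks departed from the mean of the other ages. The paired fit called none (0%; smallest adjusted p = 0.581, 659 genes at an unadjusted p under 0.05, none in DESeq2), and the unpaired fit called none (0%; 133 genes at an unadjusted p under 0.05, 1 in DESeq2). For Arrdc4 and Txnip the log2 change at 3-4 weeks was 0.096 and 0.080 above that mean (adjusted p = 0.99 each in the paired fit), which does not bear on 10-13 weeks alone. Set against each age on its own, a comparison added after the data were seen, the paired fit called 2 genes for 0-3 days (0.0145%), 8 for 10-13 weeks (0.0579%) and none for 20 months (0%; 784 genes at an unadjusted p under 0.05). Arrdc4 and Txnip were not among these 10 genes, so neither was shown to respond less at 3-4 weeks than at 10-13 weeks. Of the 10 genes only Itga6 was among the 54. It had 18.6, 16.9 and 7.80 CPM in high glucose at 3-4 weeks, against 28.3, 22.1 and 11.6 CPM in normal glucose, a log2 change of -0.52 ± 0.095 SE (adjusted p = 0.0195). At 10-13 weeks it averaged 14.6 CPM in high glucose and 11.7 CPM in normal glucose, a log2 change of 0.34 ± 0.10 SE (adjusted p = 0.0439), and the difference between these changes was -0.86 (adjusted p = 0.0314).

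Of the 54 genes, 14 were called at no other age. They were Tinagl1, Fibin, Ezr, Olfm1, Adamtsl4, Hnrnpa2b1, Cpne8, Tmod2, Tax1bp1, Rab11fip5, Anxa3, Adgrg1, Atp2b4 and Slc1a3. None of them differed from the mean of the other ages by the test above, so none is shown to be particular to 3-4 weeks.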

How the data were processed

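RNA was sequenced from 24 libraries, and the authors deposited 1 table with a raw count and an FPKM value per gene and library, 30957 genes in all. The deposited count values are whole numbers that differ in total between libraries and were not scaled. As tested on the file, each deposited FPKM value is that gene's count over a length that is the same in all libraries, scaled to the library total. HISAT2 2.0.4, StringTie 1.3.0, edgeR and the build Rnor_6.0 are named in the submitters' processing notes; their roles, the annotation release, strandedness and filters are not given in the sources used here.

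Counts of all 24 libraries were fitted in R 4.3.3 with edgeR 4.0.16 (quasi-likelihood, robust, TMM, filterByExpr with minimum count 10 and minimum total 15), which left 13806 genes; 11647 genes had no count. CPM are TMM-scaled, except for marker sums, which use plain totals. All 24 libraries entered each fit so as to share 1 estimate of the spread. 2 fits are given side by side: a mean per group (unpaired), and the number within age as a block (paired, 12 blocks). The check behind the pairing was the correlation of deviations from group means. For equal numbers it was 0.57 to 0.67 at 3-4 weeks, 0.20 to 0.32 at 0-3 days, 0.37 to 0.41 at 10-13 weeks and 0.41 to 0.49 at 20 months. It was below 0 for different numbers at each age, which follows on average from taking off the group means. Calls use a Benjamini-Hochberg adjusted p under 0.05 over all genes tested, from edgeR's two-sided test unless DESeq2 1.42.0 is named, and SE is the absolute log2 change over the square root of F. Libraries of 1 group differed beyond sampling noise (chi-square per degree of freedom 31.1 to 43.1), so none counts as a duplicate. The scripts were tested on simulated data.

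Genes were named by this rule: in each direction the 12 called genes of largest change that had a mean log2 CPM of at least 1, moved 1 way in 3 of 3 pairs and had a proper symbol; in each list the 4 members of smallest adjusted p; and 12 genes whatever their values (Il6, Ptgs2, Nfat5, Akr1b1, Hk2, Slc2a1, Postn, Col3a1, Col1a1, Acta2, Arrdc4, Txnip). Further called genes and a few list members were named after their values were seen. 2 called genes are not reported here and not drawn in the figures. The comparison, the lists (24 functional, 10 of cell types) and the rule were chosen with earlier results of these data known. Alternatives were RLE scaling, DESeq2, no filter, no robust option, the 6 libraries alone and leaving out libraries or pairs.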

Additional observations from a re-analysis of the deposited data

Results flagged for a closer look

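For 10 genes the change between high and normal glucose at 3-4 weeks differed from that at 1 other age by a test of the difference itself (paired fit, edgeR, 13806 genes tested for each age). Differences are given as the log2 change at 3-4 weeks minus that at the other age. Apart from Itga6, none of these genes was called at 3-4 weeks, and all 10 were called at the other age.

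Against 0-3 days, Tiparp, a mono-ADP-ribosyltransferase induced by the aryl hydrocarbon receptor, differed by -0.98 (adjusted p = 0.00356). Its log2 change was -0.05 ± 0.095 SE at 3-4 weeks and 0.93 ± 0.086 SE at 0-3 days. Creb3l1, a membrane-bound transcription factor of collagen-secreting cells, differed by -0.58 (adjusted p = 0.0210), with log2 changes of 0.01 at 3-4 weeks and 0.60 at 0-3 days.

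Against 10-13 weeks, 8 genes differed. Agtr1a, the angiotensin II receptor, averaged 30.3 CPM in high and 32.3 CPM in normal glucose at 3-4 weeks, and 16 CPM in high and 28.7 CPM in normal glucose at 10-13 weeks, so that its log2 change was -0.06 ± 0.090 SE at 3-4 weeks and -0.83 ± 0.096 SE at 10-13 weeks (difference 0.77, adjusted p = 0.0339). Adamts15, a matrix protease, had log2 changes of -0.20 at 3-4 weeks and -1.48 at 10-13 weeks (difference 1.27, adjusted p = 0.0186). Acsl3, a fatty acid ligase, had 0.19 and -0.30 at these ages (difference 0.49, adjusted p = 0.0314). Chst2, a sulfotransferase, differed by -0.52 (adjusted p = 0.0394), the endothelial C-type lectin gene Clec14a by -0.76 (0.0394) and the transcription factor Mef2a by -0.49 (0.0394). The complement gene C2 (ENSRNOG00000051158) differed by 3.46 (adjusted p = 0.0339), at 0.0637 CPM in high and 0.644 CPM in normal glucose at 10-13 weeks. Itga6, the laminin receptor subunit, changed in opposite directions and differed by -0.86 (adjusted p = 0.0314). At 20 months no gene differed, with 784 genes at an unadjusted p under 0.05.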

How the results depend on the processing

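The paired count of 54 genes was 63 with RLE scaling, 52 without the filter, 50 in DESeq2 (43 of the 54 among them), 40 without the robust option and 67 with the 6 libraries alone (40 of the 54). With no replicate block it was 0, and with a pair left out it ranged from 5 to 21. The unpaired count of 0 was 54 with the replicate block, 2 in DESeq2, and 0 to 1 with libraries or pairs left out, the 1 being Cyp1b1 without the libraries numbered 1. For the difference from the mean of the other ages, the unpaired count of 0 was 1 in DESeq2 (Rn60_10_0890.5), and the paired count stayed at 0 in the alternatives run. The osmotic list had 0 called members with no replicate block and 1 to 2 with a pair left out (1 without pair 1). None of the 54 genes changed direction in any alternative to the paired fit. Their directions were not followed through the alternatives to the unpaired fit. Of the genes not called, Col1a1 ranged from -0.10 to 0.0075 with a pair left out (above 0 without pair 2), Hk2 from -0.019 to 0.14 and Ptgs2 from -0.13 to 0.52 (each below 0 without pair 1). For each change of a count or direction the cause was not tested.

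With 3 libraries a group and changes mostly under 2-fold, a gene that did not pass is not shown to be unchanged. Equal numbers as pairs rest on the correlations, not on the labels. Glucose and osmolarity were not separated.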
